A study of Canis lupus familiaris with 17 samples.

Results

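The 8 genes described here, FN1, VCAN, THBS1, TIMP1, F13A1, VEGFA, VEGFD and PLAUR, code for proteins of the extracellular matrix, wound repair and vessel growth. They were measured by single-cell RNA sequencing in circulating leukocytes of 7 healthy dogs and 10 dogs with osteosarcoma (OS), and were found by their gene symbols, with 1 row for each symbol among 20257 genes in each of the 17 libraries. Their Ensembl identifiers are FN1 ENSCAFG00000014345, VCAN ENSCAFG00000008582, THBS1 ENSCAFG00000008704, TIMP1 ENSCAFG00000015155, F13A1 ENSCAFG00000009509, VEGFA ENSCAFG00000001938, VEGFD ENSCAFG00000011945 and PLAUR ENSCAFG00000004730. All 8 were chosen by their levels in monocytes and their difference between OS and healthy dogs in these same data, so those values are given as descriptions. The healthy dogs were clinically healthy, client-owned animals of various breeds, aged 6.9 to 8.8 years. The dogs with OS, aged 5.7 to 12 years, had a primary bone tumour, had received no treatment, and were bled before amputation. Each library held peripheral blood mononuclear cells of 1 wild-type dog, prepared from EDTA blood by density gradient centrifugation, red cell lysis and a low-speed wash against platelets.

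Fibronectin (FN1) and versican (VCAN) are structural components of the provisional matrix that fills a wound. Thrombospondin 1 (THBS1) is a matricellular glycoprotein, stored in platelet granules and made by myeloid cells, that can release transforming growth factor beta from its latent form. TIMP1 inhibits matrix metalloproteinases, F13A1 is the catalytic subunit of the transglutaminase that cross-links fibrin and fibronectin, and PLAUR is the urokinase receptor that holds plasminogen activation at the cell surface. VEGFA drives the growth and permeability of blood vessels, and VEGFD acts mainly on lymphatic vessels. Monocytes leave the blood for wounds and tumours, where they become macrophages that lay down, cut and remodel matrix. Dogs have circulating monocytes with and without surface CD4, and monocytic myeloid-derived suppressor cells (M-MDSCs) are immature monocytes that restrain T cells.

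The libraries held 93013 barcodes, of which 84345 passed the filters on genes, unique molecular identifiers (UMIs) and mitochondrial share. After 3938 likely doublets had been removed and 3305 platelets and 260 erythrocytes set aside, 76842 leukocytes remained. Depth was 7740230 (OS dog 3) to 56510134 UMIs per dog, with medians of 34224779 in healthy dogs and 41066198 in OS. Any 2 libraries shared 0 to 22 barcodes (median 8), at most 0.375% of the smaller library. Clusters were built without the 8 genes and held 14392 monocytes, 228 to 1998 per dog. The 12 monocyte markers summed to 24263 to 33177 UMIs per 1000000 UMIs (CPM) in the monocytes of healthy dogs and 22948 to 36764 CPM in OS, against 3859 to 5431 and 2894 to 7637 CPM in neutrophils. Monocytes made up 9.28% to 20.8% of cells in healthy dogs (median 14.8%) and 6.9% to 38.1% in OS (median 20.2%). They divided into 8077 CD4- monocytes, 2997 CD4+ monocytes, 1008 monocytes led by interferon-induced genes (IFN signature monocytes), 447 M-MDSCs and 1863 monocytes of a cluster that took no subset name. The name CD4+ monocytes stands here for 1 cluster, number 2, whose markers did not settle its name. It scored higher on the M-MDSC than on the CD4+ monocyte markers (2.33 against 1.99), and its 10 leading genes held 3 M-MDSC markers (IL1B, KCNJ2 and MEFV). Only IL1B among those 10 is a CD4+ monocyte marker, and it is on both lists. Its CD4 level was 291 CPM, against 1.42 to 29.1 CPM in the CD4- clusters. The M-MDSC name stayed with the cluster that scored highest, number 11, by a rule made once the clusters were known, so the comparisons of these names are comparisons of those clusters. In the other clusterings tried, with another resolution, seed, cell filter or correction, the marker rule was not applied again. Each cluster took the commonest name that its cells had here, and none took the M-MDSC name. The M-MDSC values thus rest on 1 clustering. The CD4 classes changed as well. With another seed alone there were 5548 CD4+ monocytes, against 2997 here, and 6536 CD4- monocytes, against 8077. These names thus do not stand for the same cells in each clustering. A further 422 monocytes that carried platelet transcripts were kept apart. Healthy dog 1 and OS dogs 1, 2 and 3 stood apart when the clustering was not corrected between dogs, with 7 to 19 CD4+ monocytes each. The fold changes in all monocytes, the subset difference and the pairs of genes are also given without them. Most other results are given only with these dogs.

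Summed over all dogs, most transcripts of each of the 8 genes came from monocytes. Of the UMIs summed over the leukocytes, platelets and erythrocytes of the 17 dogs, monocytes held 93.8% for FN1, 93.5% for F13A1, 91.1% for VCAN, 86.9% for VEGFD, 78.9% for VEGFA, 77.9% for PLAUR, 66.0% for TIMP1 and 59.5% for THBS1. The share in single dogs ran from 33.0% to 94.7% for THBS1, 34.4% to 87.4% for TIMP1, 45.4% to 86.9% for PLAUR and 88.7% to 95.7% for FN1, so monocytes did not hold most of the first 3 in every dog. Platelets left in the preparations held a further 18.3% of the TIMP1 and 32.8% of the THBS1 UMIs. Per unit of RNA, however, monocytes were not the highest class for every gene. TIMP1 and THBS1 were highest in platelets, VEGFA and PLAUR were higher in neutrophils than in all monocytes, and VCAN was also high in eosinophils and basophils. Levels below are CPM, the UMIs of a gene in the summed cells of a class in 1 dog per 1000000 UMIs of those cells, as a mean ± SD over the dogs with at least 25 such cells. Only 1 end of each transcript was counted, so levels are compared between cells and not between genes.

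**Figure D1:**
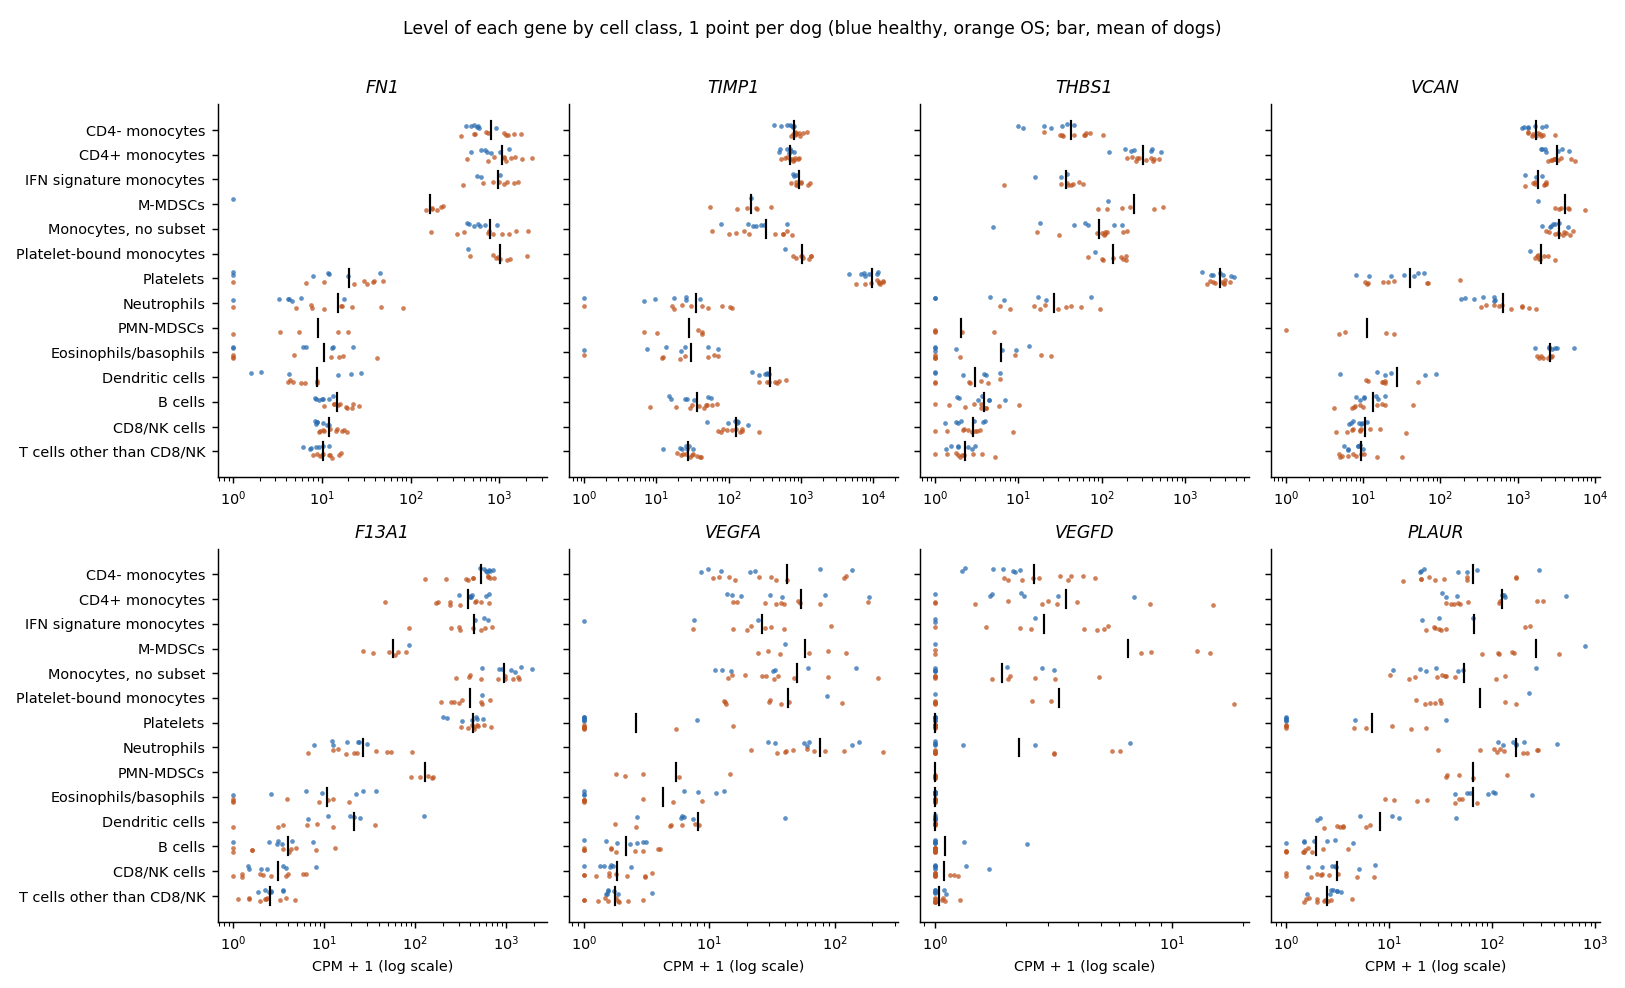
Level of each gene in each cell class, one panel per gene; the horizontal axis is CPM + 1 on a log scale, each point is the summed cells of 1 dog, blue for healthy and orange for OS, and each bar is the mean over dogs. FN1 and F13A1 stand out in the monocyte classes, TIMP1 and THBS1 are highest in platelets, VCAN reaches eosinophils and basophils, and VEGFA and PLAUR reach neutrophils.

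Fibronectin was sharply divided between monocytes and the other cells. FN1 reached 1064 ± 492 CPM in CD4+ monocytes (17 dogs), 953 ± 384 CPM in IFN signature monocytes (11 dogs) and 809 ± 408 CPM in CD4- monocytes (17 dogs). It was 163 ± 77.3 CPM in M-MDSCs (7 dogs), 14.2 ± 20.8 CPM in neutrophils and 9.48 ± 2.87 CPM in T cells other than the CD8 and NK clusters. Neighbours within the upper part of this order were close: IFN signature monocytes were above CD4- monocytes in 5 of 11 dogs, and CD4- monocytes above the unnamed subset in 8 of 17. M-MDSCs were below CD4+ monocytes in all 7 dogs that had both. FN1 mRNA was seen in a median of 71.7% of a dog's monocytes and 4.75% of its T cells, whose median depths were 11122 and 5663 UMIs. T cells should lack most of these transcripts, so their shares are given for each gene as the background and are not read as expression. With every cell thinned to 2000 UMIs these shares were 48.2% and 1.86%.

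Versican was high in all monocyte subsets and in 1 granulocyte class. M-MDSCs had the highest mean, 4089 ± 1750 CPM, followed by the unnamed subset with 3418 ± 913 CPM and CD4+ monocytes with 3209 ± 1007 CPM. Eosinophils and basophils held 2644 ± 898 CPM (15 dogs), CD4- monocytes 1741 ± 482 CPM and neutrophils 655 ± 442 CPM. CD4+ monocytes were above the eosinophil and basophil class in 10 of 15 dogs and the unnamed subset above CD4+ monocytes in 9 of 17, so this part of the order did not hold from dog to dog. CD4- monocytes were above neutrophils in all 17 dogs. Dendritic cells, which share many genes with monocytes, held 26.8 CPM and T cells 8.33 CPM. VCAN was seen in a median of 90.1% of thinned monocytes and 1.56% of thinned T cells (99.1% and 3.47% unthinned).

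By mean log2 difference, thrombospondin 1 set CD4+ and CD4- monocytes furthest apart among the 8 genes. In platelets it reached 2605 ± 643 CPM (16 dogs), above CD4+ monocytes in 16 of 16 dogs. CD4+ monocytes held 312 ± 112 CPM, with 119 CPM in the lowest dog, a median of 280 CPM and 516 CPM in the highest. CD4- monocytes held 41.2 ± 24.7 CPM, from 8.94 CPM through a median of 33.3 CPM to 103 CPM. The ranges over dogs did not overlap, and within each dog CD4+ monocytes were higher, by 2.0 to 4.08 on the log2 scale (mean 3.05, SD 0.62). M-MDSCs were between platelets and CD4- monocytes at 239 ± 174 CPM, IFN signature monocytes were at 35.8 CPM, neutrophils at 25.7 ± 26.7 CPM, B cells at 2.87 CPM and T cells at 1.31 CPM. THBS1 was seen in a median of 22% of monocytes and 0.590% of T cells, or 11.6% and 0.178% after thinning. Without any cell that held a UMI of a platelet marker, the mean log2 difference was 2.91 between 2320 CD4+ and 5600 CD4- monocytes.

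**Figure D2:**
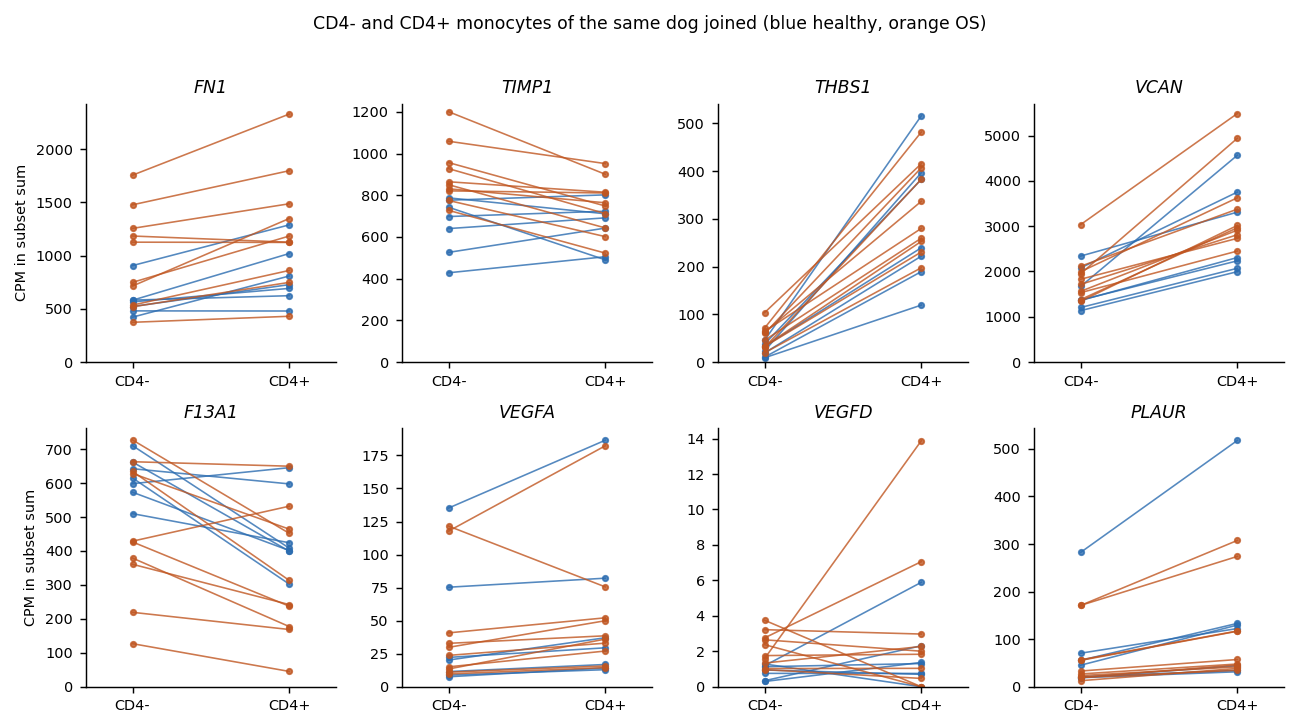
Level of each gene in CD4- and CD4+ monocytes of the same dog, joined by a line; the vertical axis is CPM on a linear scale from 0, with healthy dogs in blue and OS dogs in orange. THBS1, VCAN and PLAUR rise from CD4- to CD4+ in all 17 dogs, while F13A1 falls in 15 of them.

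The metalloproteinase inhibitor TIMP1 was a transcript of platelets first and of most monocytes second. Platelets held 9679 ± 2807 CPM, between 4588 and 13583 CPM, and the platelet-bound monocytes 1041 ± 276 CPM (9 dogs). IFN signature monocytes held 938 ± 195 CPM, CD4- monocytes 801 ± 183 CPM and CD4+ monocytes 708 ± 131 CPM. The order of these was partly kept within dogs, since IFN signature monocytes were above CD4- monocytes in 9 of 11 dogs and CD4- above CD4+ monocytes in 12 of 17. The unnamed subset held 325 ± 224 CPM and was below CD4- monocytes in all 17 dogs (mean log2 difference -1.63). M-MDSCs were also low at 205 ± 104 CPM and below CD4+ monocytes in all 7 dogs, by a mean of 2.06 on the log2 scale. Outside the monocytes, dendritic cells held 371 ± 111 CPM, CD8 and NK cells 124 ± 49.6 CPM and other T cells 26.6 CPM. TIMP1 was seen in a median of 62.4% of thinned monocytes and 4.80% of thinned T cells (87.2% and 11.9% unthinned).

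The fibrin cross-linking subunit F13A1 had an order of its own. It was highest in the monocytes of no named subset, 954 ± 443 CPM, and in 16 of 17 dogs these were above CD4- monocytes, which held 524 ± 174 CPM. This cluster had 4.01% mitochondrial UMIs and a median of 6773 UMIs per cell, against 1.85% to 3.19% and 2694 to 14210 UMIs in the CD4- clusters, and the part of these in its F13A1 level was not tested. IFN signature monocytes followed with 438 CPM, platelets with 430 ± 123 CPM and CD4+ monocytes with 380 ± 173 CPM. IFN signature monocytes were above platelets in 6 of 11 dogs. CD4+ monocytes were below CD4- monocytes in 15 of 17 dogs (mean log2 difference -0.56, SD 0.47). M-MDSCs, at 56.8 ± 21.8 CPM, were below CD4+ monocytes in all 7 dogs, by a mean of 2.07 on the log2 scale. F13A1 was seen in 53.8% of thinned monocytes and 0.353% of thinned T cells (78.5% and 0.841% unthinned).

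The vascular growth factors were also spread over monocytes and neutrophils. VEGFA had its highest mean in neutrophils, 74.9 ± 57.3 CPM, where it was above all monocytes (44.3 ± 46.9 CPM) in 14 of 17 dogs. It was 56.9 ± 36.1 CPM in M-MDSCs, 53.2 ± 53.4 CPM in CD4+ monocytes and 41.0 ± 43.3 CPM in CD4- monocytes, and CD4+ were above CD4- monocytes in 16 of 17 dogs. The SD over dogs was as large as the mean in both subsets. VEGFA was seen in 5.40% of thinned monocytes and 0.119% of thinned T cells (19.2% and 0.327% unthinned). VEGFD gave 306 UMIs in the whole data set, 266 of them in monocytes, at 1.77 ± 1.12 CPM. Its means of 5.54 ± 5.73 CPM in M-MDSCs, 2.58 ± 3.51 CPM in CD4+ and 1.61 ± 1.00 CPM in CD4- monocytes could not be ordered. No VEGFD UMI was found in 3301 platelets, 2343 eosinophils and basophils or 876 dendritic cells, which allows up to 0.0909%, 0.128% and 0.342% of such cells with a UMI, for counting error only. In T cells a median of 0% of cells held one, against 0.373% of thinned and 1.2% of unthinned monocytes.

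The urokinase receptor PLAUR was highest in M-MDSCs, 266 ± 263 CPM, and next in neutrophils, 170 ± 92.1 CPM. M-MDSCs were above neutrophils in 6 of 7 dogs, and neutrophils above CD4+ monocytes (123 ± 131 CPM) in 12 of 17. CD4- monocytes held 64.9 ± 74.0 CPM and were below CD4+ monocytes in all 17 dogs, by a mean of 0.97 on the log2 scale (SD 0.27). Neutrophils were above all monocytes in 17 of 17 dogs. Dendritic cells, at 7.16 CPM, and T cells, at 1.51 CPM, had little of it. PLAUR was seen in 7.07% of thinned monocytes and 0.306% of thinned T cells (28.6% and 0.836% unthinned).

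Side by side, CD4+ monocytes were above CD4- monocytes of the same dog in all 17 dogs for THBS1, PLAUR and VCAN, in 16 for VEGFA and in 14 for FN1. They were above them in 9 dogs for VEGFD, 5 for TIMP1 and 2 for F13A1. The mean log2 differences were 3.05 for THBS1, 0.97 for PLAUR, 0.87 for VCAN, 0.50 for VEGFA, 0.41 for FN1, 0.11 for VEGFD, -0.16 for TIMP1 and -0.56 for F13A1. The M-MDSCs lay away from CD4+ monocytes in a different way, with less FN1, TIMP1 and F13A1 in 7 of 7 dogs, more PLAUR in 7 of 7 and more VCAN in 6 of 7. The M-MDSC cluster also scored higher on the neutrophil markers (2.81, the mean log2 ratio to other cells) than the CD4+ cluster (1.3), against 4.36 in the main neutrophil cluster, with a median of 4706 UMIs per cell against 8301. The M-MDSC and neutrophil marker lists share CD4 and S100A12, so the neutrophil score is not independent of the name. CD4, already part of that score, was 1679 CPM in the M-MDSC cluster, against 291 CPM in the CD4+ cluster and 4143 CPM in the main neutrophil cluster. The part of neutrophil transcripts in the M-MDSC values was not tested. The platelet-bound monocytes differed from CD4- monocytes most for THBS1, by a mean log2 difference of 1.53 (higher in 9 of 9 dogs), and had slightly less F13A1 (higher in 2 of 9).

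Levels of 7 of the 8 genes varied between dogs more than those of most genes, and VEGFD was too low to be ranked. Among 7022 genes with at least 10 CPM in monocytes, the SD of the log2 level over the 17 dogs stood at the 98.6th percentile for VEGFA, 98.5 for PLAUR, 95.5 for THBS1, 95 for FN1, 94.7 for F13A1, 77.0 for TIMP1 and 66.7 for VCAN. PLAUR was 336 CPM in healthy dog 1, 212 CPM in OS dog 2 and 194 CPM in OS dog 1, against a median of 62.4 CPM in healthy dogs and 35.1 CPM in OS. VEGFA was 150 CPM in healthy dog 2 and in OS dog 3, against medians of 23.3 and 29.8 CPM. OS dog 3, also the highest dog for THBS1 and VCAN in monocytes, had the smallest library, with 1332 barcodes, 7740230 UMIs and 228 monocytes. The part of library size in its levels was not tested. The dogs with most VEGFA or PLAUR were thus found in both groups. Healthy dog 1 and OS dogs 1, 2 and 3 are those that stood apart without the correction between dogs, and the percentiles were not computed without them. The SD runs over both groups, so it includes the OS differences that were known when the 8 genes were chosen.

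The study asked how circulating leukocytes of dogs with OS differ from those of healthy dogs. When the UMIs of a cell class were summed per dog and compared by edgeR's quasi-likelihood test, no gene of any class passed an adjusted p of 0.01 with a log2 fold change beyond 0.58, and 0 of the 8 genes did. The share of genes called was thus 0% for all cells, monocytes, CD4- monocytes, CD4+ monocytes, IFN signature monocytes and neutrophils. It was also 0% for M-MDSCs, where 1 healthy dog with at least 25 cells allows no comparison. At an unadjusted p below 0.05, edgeR gave 820 of 14035 genes in monocytes, 5.84%, of which 3.16% of all genes tested were higher and 2.69% lower in OS. By this measure 3 of the 8 genes, FN1, TIMP1 and VEGFD, were higher and 0 were lower. Because the genes were named with these differences known, nothing is read from that count. DESeq2 called 2 genes in monocytes and 848 at an unadjusted p below 0.05, with 0 of the 8 genes among those it called. The median log2 fold change was 0.37 over the 8 genes and 0.01 over all genes tested, and for the same reason nothing is read from these medians.

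In monocytes, FN1 ran from 488 CPM through a median of 572 CPM to 958 CPM in healthy dogs and from 343 CPM through 929 CPM to 1836 CPM in OS. The groups overlapped, with 5 of 10 OS dogs above every healthy dog and 1 below. The log2 fold change was 0.74 (SE 0.28, edgeR adjusted p = 0.741). The highest dogs were OS dog 6, with 1836 CPM, and OS dog 7, with 1493 CPM.

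TIMP1 was 421 CPM, 660 CPM and 756 CPM in the lowest, median and highest healthy dog and 621 CPM, 821 CPM and 1111 CPM in OS. The groups overlapped, and 6 of 10 OS dogs were above all healthy dogs. The log2 fold change was 0.45 (SE 0.16, edgeR adjusted p = 0.741). For THBS1 the same values were 22.5 CPM, 75 CPM and 131 CPM in healthy dogs and 49.2 CPM, 102 CPM and 204 CPM in OS (log2 fold change 0.56, SE 0.29, edgeR adjusted p = 0.858). Only 2 OS dogs were above the healthy range for THBS1. Both transcripts are abundant in platelets, and 9 of the 12 platelet markers were measured in monocytes, none of them at 0 and 7 with a higher mean in OS. Their sum was 10.1 to 88.0 CPM in healthy dogs (median 29.0 CPM) and 16.9 to 78.4 CPM in OS (median 39.2 CPM). Without cells that held a platelet UMI, the log2 fold change was 0.46 for TIMP1, against 0.45 with them, and 0.58 for THBS1, against 0.56. The 10 neutrophil markers were also measured in monocytes, none at 0 and 9 with a higher mean in OS, and summed to 4614 to 7200 CPM in healthy dogs (median 5865 CPM) and 4801 to 7388 CPM in OS (median 6340 CPM). In CD4- monocytes 9 of the 10 had a higher mean in OS, with medians of 4706 and 5196 CPM. Their part in the OS differences was not tested.

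VCAN ran from 1483 CPM through 1615 CPM to 2647 CPM in healthy dogs and from 1762 CPM through 2086 CPM to 4103 CPM in OS. All 10 OS dogs were above the healthy median and 3 above the healthy range (log2 fold change 0.29, SE 0.16, edgeR adjusted p = 0.858). F13A1 went the other way in value. It was 517 CPM, 647 CPM and 788 CPM in the lowest, median and highest healthy dog and 111 CPM, 461 CPM and 706 CPM in OS. Of the OS dogs, 6 were below the lowest healthy dog, with OS dog 10 at 111 CPM and OS dog 5 at 225 CPM (log2 fold change -0.41, SE 0.26, edgeR adjusted p = 0.863).

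VEGFA spanned nearly the same range in both groups, 8.35 to 150 CPM in healthy dogs and 11.2 to 150 CPM in OS (log2 fold change 0.09, SE 0.59, edgeR adjusted p = 0.992). PLAUR was 21.5 to 336 CPM in healthy dogs and 20.1 to 212 CPM in OS (log2 fold change -0.30, SE 0.60, edgeR adjusted p = 0.949). The standard errors of both leave room for a change of either sign. The lymphatic factor VEGFD, with 3 to 41 monocyte UMIs per dog, was 0.629 CPM, 0.890 CPM and 1.63 CPM in the lowest, median and highest healthy dog. In OS it was 0.907 CPM, 2.08 CPM and 4.11 CPM, with 7 of 10 OS dogs above all healthy dogs. Its log2 fold change of 1.31 was the furthest from 0 among the 8 genes in monocytes (SE 0.33, edgeR adjusted p = 0.741). Without healthy dog 1 and OS dogs 1, 2 and 3 the log2 fold changes in monocytes were -0.60 for VEGFA, -0.39 for PLAUR, 0.85 for FN1, 0.57 for TIMP1, 0.32 for THBS1, 0.12 for VCAN, -0.56 for F13A1 and 1.38 for VEGFD. The value for VEGFA thus turned and those for THBS1 and VCAN were smaller, and edgeR again gave 0 calls (1512 of 13646 genes had an unadjusted p under 0.05).

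**Figure D3:**
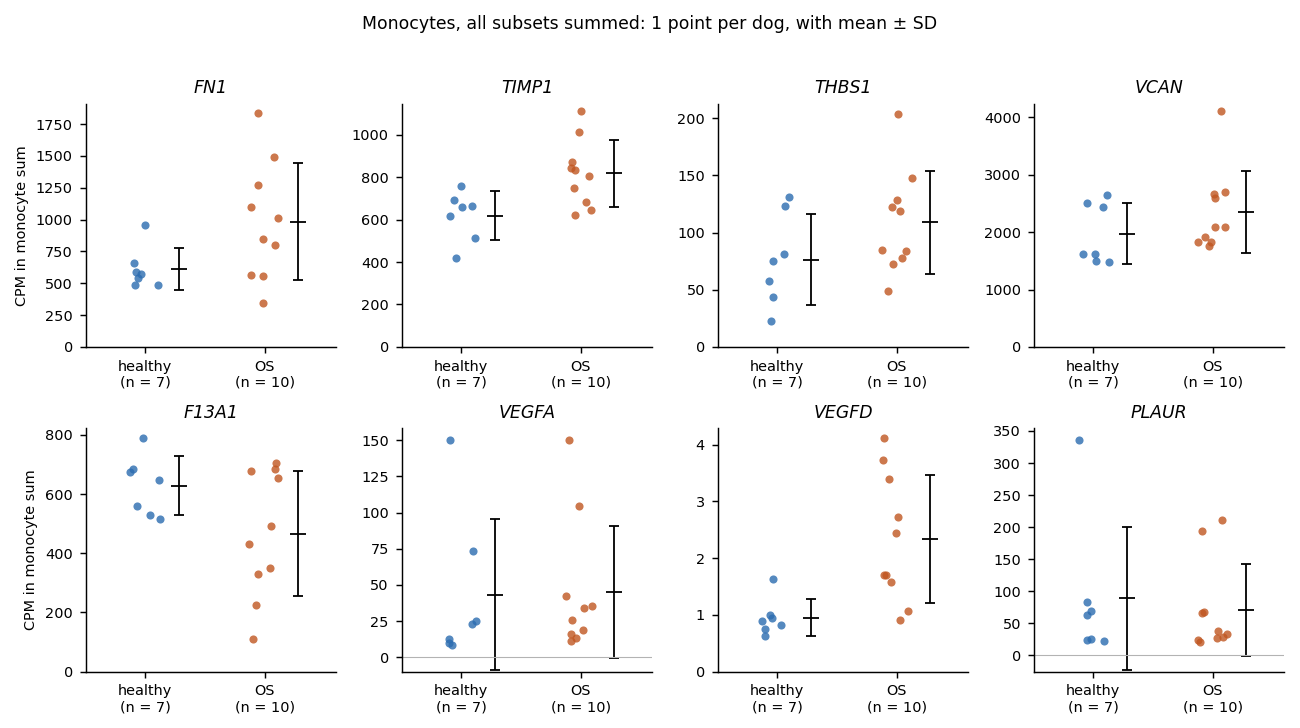
Level of each gene in the summed monocytes of each dog, one panel per gene; the vertical axis is CPM, each point is 1 dog, and the bar and whiskers are the mean and SD of 7 healthy and 10 OS dogs. The groups overlap in every panel, with 7 of 10 OS dogs above all healthy dogs for VEGFD, 6 for TIMP1 and 5 for FN1, and 6 below all healthy dogs for F13A1.

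In CD4- monocytes edgeR called 0 of 13314 genes and gave 6.1% of them at an unadjusted p below 0.05 (DESeq2 1 called and 797 unadjusted). By the unadjusted measure 4 of the 8 genes, FN1, TIMP1, THBS1 and VEGFD, were higher in OS, beside 3.38% of all genes, a count from which again nothing is read. THBS1 was 8.94 CPM, 23.5 CPM and 45.6 CPM in the lowest, median and highest healthy dog and 19.4 CPM, 52.7 CPM and 103 CPM in OS. The groups overlapped, with 6 of 10 OS dogs above the healthy range and 9 above the healthy median, on 56 to 752 UMIs per dog (log2 fold change 1.1, SE 0.33, edgeR adjusted p = 0.761). TIMP1 was 428 CPM, 698 CPM and 788 CPM in healthy dogs and 728 CPM, 858 CPM and 1201 CPM in OS, with 8 of 10 above the healthy range. Its log2 fold change was 0.51 (SE 0.16, edgeR adjusted p = 0.761), that of FN1 0.80 (SE 0.28) and that of VEGFD 1.29 (SE 0.36), with the same adjusted p. The platelet markers summed to 8.82 to 75.8 CPM in these cells of healthy dogs (median 29.5 CPM) and 15.7 to 69.8 CPM in OS (median 36.6 CPM). Without cells that held a platelet UMI the log2 fold change of THBS1 was 1.04.

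In CD4+ monocytes edgeR called 0 of 11486 genes and gave 6.57% at an unadjusted p below 0.05 (DESeq2 0 called and 657 unadjusted). FN1 alone of the 8 was higher by the unadjusted measure, beside 3.47% of all genes, at 480 CPM, 728 CPM and 1289 CPM in healthy dogs and 430 CPM, 1155 CPM and 2331 CPM in OS (log2 fold change 0.70, SE 0.26, edgeR adjusted p = 0.742). THBS1 was 119 CPM, 240 CPM and 516 CPM in healthy dogs and 198 CPM, 309 CPM and 482 CPM in OS. No OS dog was above the healthy range, and the log2 fold change was 0.20 (SE 0.25, edgeR adjusted p = 0.914). TIMP1 was 490 CPM, 692 CPM and 802 CPM in healthy dogs and 523 CPM, 756 CPM and 952 CPM in OS (log2 fold change 0.25, SE 0.14, edgeR adjusted p = 0.774).

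The OS effect on THBS1 was thus 1.1 in CD4- and 0.20 in CD4+ monocytes. Over 33 alternatives these values ran from 0.62 to 1.37 and from 0.035 to 0.40. The difference itself was tested. In an edgeR fit over 13700 genes with each dog as a block, 2 genes, 0.0146%, passed the adjusted p of 0.01 and the fold limit, and THBS1 was 1 of them (difference -0.83 on the log2 scale, SE 0.14, adjusted p = 0.00415). The other was ZNF804B (difference -1.41, SE 0.25, adjusted p = 0.00415), named here after its value was seen. THBS1 was among the 8 because its levels and OS differences were known, so this p is no independent test. At an unadjusted p below 0.05, 595 genes, 4.34%, passed. Within dogs, CD4+ monocytes were above CD4- monocytes by 3.54 ± 0.43 in healthy dogs and by 2.71 ± 0.49 in OS on the log2 scale, and 9 of 10 OS dogs were below the healthy mean (two-sided exact permutation p = 0.004 over 19448 splits, 1 of 8 such differences computed). The call did not hold under DESeq2, where the difference was -0.86 with an adjusted p of 0.0377, nor under other clusterings. Those clusterings changed the CD4+ class, so their fits compared partly different cells. CD4+ monocytes numbered 2997 in the main clustering, 5765 at the coarser resolution, 5548 with another seed and 2981 at the finer resolution. They numbered 5418 with the 8 genes in the clustering, 5563 with doublets kept and 5556 with the looser filter. The difference stayed near its size, with a larger adjusted p from edgeR, at a coarser resolution (-0.75, adjusted p = 0.583), with another seed (-0.83, 0.354), with the 8 genes in the clustering (-0.73, 0.180), with doublets kept (-0.74, 0.334) and with a looser cell filter (-0.90, 0.209). It was smaller at a finer resolution (-0.25, edgeR adjusted p = 1) and without the correction between dogs (-0.18, adjusted p = 1), where healthy dog 1 and OS dogs 1, 2 and 3 had too few CD4+ monocytes and 6 healthy and 7 OS dogs were fitted. On the same 13 dogs with the correction the difference was -0.84 (edgeR adjusted p = 0.00013). In cells with no platelet UMI it held, at -0.80 (edgeR adjusted p = 0.00257).

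The CD4- monocytes were themselves made of 4 clusters that differed in THBS1, the smallest of 311 cells. The largest, with 3957 cells, had a median of 7.86 CPM in healthy dogs and 9.10 CPM in OS. The next, with 2111 cells, had 61.6 and 108 CPM, and the one with 1698 cells had 16.6 and 49.0 CPM. In the smallest, where few dogs had 25 cells, THBS1 was 67.1 CPM in 1 healthy dog and a median of 54.8 CPM in 3 OS dogs. The cluster of 2111 cells made up a median of 21.5% of CD4- monocytes in healthy dogs and 26.4% in OS, and the largest 52.6% and 46.8%. The part of these shares in the difference was not tested. For TIMP1 the OS effect in CD4+ minus that in CD4- monocytes was -0.27 in the fit over all genes and did not pass (SE 0.09, edgeR adjusted p = 0.893). Within dogs it was -0.28, with 10 of 10 OS dogs below the healthy mean (two-sided exact permutation p = 0.030 over 19448 splits, unadjusted, 1 of the same 8), and this p too is no independent test.

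**Figure D4:**
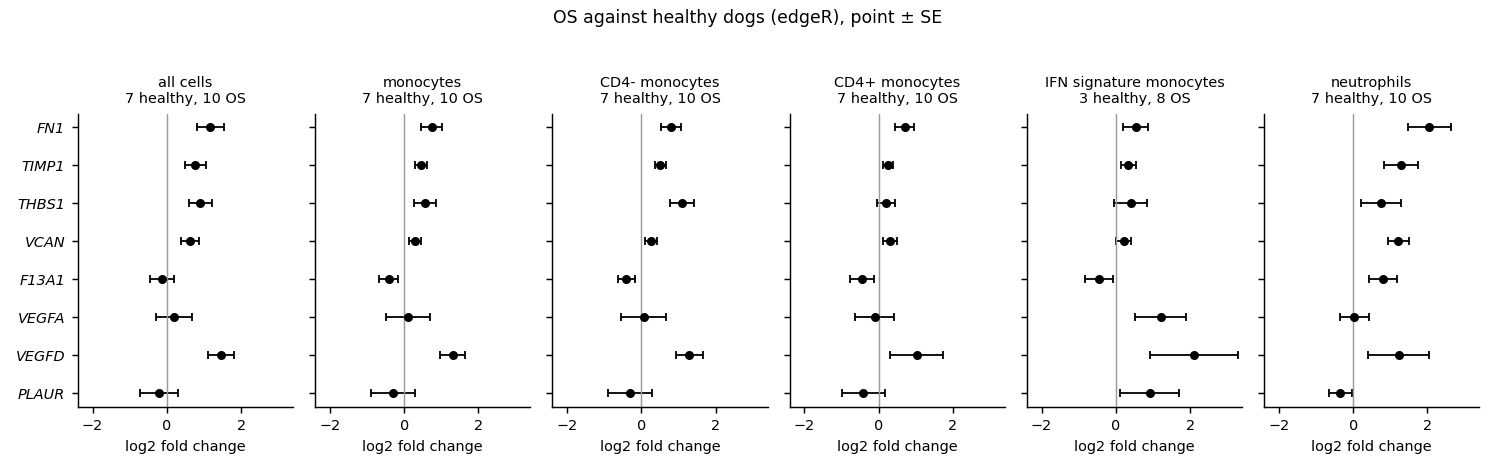
Log2 fold change, OS over healthy, of each gene in each cell class, with bars of 1 standard error from edgeR; the grey vertical line marks 0 and each panel is 1 class. FN1 and VEGFD lie right of 0 in every class shown, THBS1 lies further right in CD4- monocytes (1.1) than in CD4+ monocytes (0.20), and F13A1 lies left of 0 in the monocyte classes and right of it in neutrophils (0.79).

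In the IFN signature monocytes of 3 healthy and 8 OS dogs, edgeR called 0 of 10306 genes and gave 4.51% at an unadjusted p below 0.05, 2.72% of all genes higher in OS, and none of the 8 among them (DESeq2 0 called and 342 unadjusted). The log2 fold changes were 0.53 for FN1, 0.34 for TIMP1, 0.39 for THBS1, 0.21 for VCAN, -0.47 for F13A1, 1.21 for VEGFA, 2.11 for VEGFD and 0.91 for PLAUR. With 3 healthy dogs they were loosely fixed, and over 25 alternatives THBS1 ran from 0.093 to 0.82, VCAN from 0.034 to 0.38, VEGFA from 0.088 to 2.87 and PLAUR from -0.78 to 1.68. VEGFD ran from 0.99 to 4.59 over 24 alternatives, and its value rests on 1 UMI in healthy dog 3 and 0 in healthy dogs 6 and 7. Only 1 healthy dog, healthy dog 1 with 31 cells, had at least 25 M-MDSCs, so the values are given without a comparison of the groups (edgeR called 0 of 7062 genes and gave 6.24% at an unadjusted p below 0.05, and DESeq2 0 and 191). In that dog PLAUR was 794 CPM, above the 6 OS dogs at 78.8 to 443 CPM, VCAN was 1853 CPM, below their 3063 to 7444 CPM, and FN1 was listed at 0 against 150 to 231 CPM. With dogs of at least 10 M-MDSCs, 7 healthy and 9 OS, FN1 was 0 to 259.7 CPM in healthy dogs on 0 to 19 UMIs, with 6 of 7 at or below 86.8 CPM, and 83.0 to 292 CPM in OS on 5 to 61 UMIs. That fit of 7785 genes gave 0 calls by edgeR and 453 genes with an unadjusted p under 0.05, and the log2 fold change of FN1 was 1.65 (edgeR adjusted p = 0.712). Healthy dog 1 was also the highest healthy dog for PLAUR in all cells, monocytes, both CD4 subsets and neutrophils. TIMP1 was 203 CPM there and 53.6 to 383 CPM in OS, and THBS1 118 CPM and 89.8 to 544 CPM.

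Neutrophils, with a median of 1724 UMIs per cell, held few transcripts of most of the 8 genes. In them edgeR called 0 of 9732 genes and gave 4.57% at an unadjusted p below 0.05 (DESeq2 0 called and 299 unadjusted), and 4 of the 8, FN1, TIMP1, VCAN and F13A1, were higher in OS by that measure, beside 2.58% of all genes. VCAN was 183 CPM, 355 CPM and 508 CPM in the lowest, median and highest healthy dog and 330 CPM, 717 CPM and 1738 CPM in OS. The groups overlapped, with 7 of 10 OS dogs above the healthy range (log2 fold change 1.21, SE 0.29, edgeR adjusted p = 0.458). FN1 rested on 0 to 20 UMIs per dog, at 0 to 16.9 CPM in healthy dogs and 0 to 82.2 CPM in OS (log2 fold change 2.05, SE 0.57, edgeR adjusted p = 0.581). The 12 monocyte markers summed to a median of 4669 CPM in the neutrophils of healthy dogs and 3936 CPM in OS, and 7 of the 12 had a higher mean in OS. The platelet markers summed to 43.2 to 208 CPM in healthy dogs and 53.2 to 338 CPM in OS. Without neutrophils that held a platelet UMI, the log2 fold change was 1.22 for VCAN and 1.98 for FN1. It was 1.14 for TIMP1 and 0.63 for F13A1, for both genes the lowest of 14 alternatives. The part of monocyte transcripts in the neutrophil values was not tested.

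Summed over all leukocytes, without the platelets and erythrocytes set aside, edgeR called 0 of 16266 genes and gave 5.75% at an unadjusted p below 0.05 (DESeq2 3 called and 1024 unadjusted), with 5 of the 8 genes, FN1, TIMP1, THBS1, VCAN and VEGFD, higher in OS, beside 2.61% of all genes. In such sums more cells of a type and more RNA per cell cannot be told apart, and the median monocyte share was 14.8% in healthy dogs and 20.2% in OS. FN1 was 108 CPM, 180 CPM and 240 CPM in healthy dogs and 91.1 CPM, 345 CPM and 812 CPM in OS, with 7 of 10 above the healthy range (log2 fold change 1.17, SE 0.37, edgeR adjusted p = 0.703). The log2 fold changes were 0.76 for TIMP1, 0.90 for THBS1, 0.61 for VCAN and 1.45 for VEGFD, each above that in monocytes alone.

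Across the 17 dogs, 28 pairs of the 8 genes were compared by their log2 levels in monocytes. A pair counted as related where the Benjamini-Hochberg adjusted permutation p of Pearson's r was below 0.05, and 3 pairs did. The share of related pairs among other genes was not computed, and the 8 genes were chosen by their monocyte levels. Nothing is thus read from the count of 3. THBS1 and VEGFA had r = 0.71 (permutation p = 0.00125, adjusted 0.0279) and rho = 0.74 (permutation p = 0.00108, adjusted 0.0302), with r = 0.72 within the healthy and 0.75 within the OS dogs and 0.60 without the 2 dogs farthest from the median of THBS1. THBS1 and VCAN had r = 0.69 (permutation p = 0.00199, adjusted 0.0279) and rho = 0.66 (permutation p = 0.00458, adjusted 0.0427), with 0.65 and 0.60 within the groups and 0.60 without the 2 farthest dogs. VEGFA and PLAUR had r = 0.66 (permutation p = 0.0044, adjusted 0.0411) and rho = 0.66 (permutation p = 0.00443, adjusted 0.0427), with 0.78 and 0.56 within the groups and 0.78 without the 2 farthest. TIMP1 and F13A1 ran against each other over all dogs with r = -0.63 (permutation p = 0.00933, adjusted 0.0653) and rho = -0.46 (permutation p = 0.0667, adjusted 0.187). Within the groups r was -0.82 in OS and 0.47 in healthy dogs, and it was -0.72 without the 2 dogs farthest from the median of TIMP1. VEGFA in monocytes was highest in healthy dog 2, OS dogs 3 and 2, healthy dog 1 and OS dog 1. Without healthy dog 1 and OS dogs 1, 2 and 3, 0 of the 28 pairs were related and 5 had an unadjusted permutation p below 0.05. Over these 13 dogs r was 0.68 for THBS1 and VEGFA, 0.68 for THBS1 and VCAN (adjusted permutation p = 0.180 for both) and 0.52 for VEGFA and PLAUR (adjusted permutation p = 0.235). Leaving out 1 dog left 0 to 4 related pairs, and 0 without any of healthy dogs 3, 4 and 6 and OS dogs 2, 3 and 8. The r itself stayed at 0.66 to 0.76 for THBS1 and VEGFA, 0.63 to 0.73 for THBS1 and VCAN and 0.59 to 0.71 for VEGFA and PLAUR, with adjusted permutation p of up to 0.0717, 0.0717 and 0.10.

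**Figure D5:**
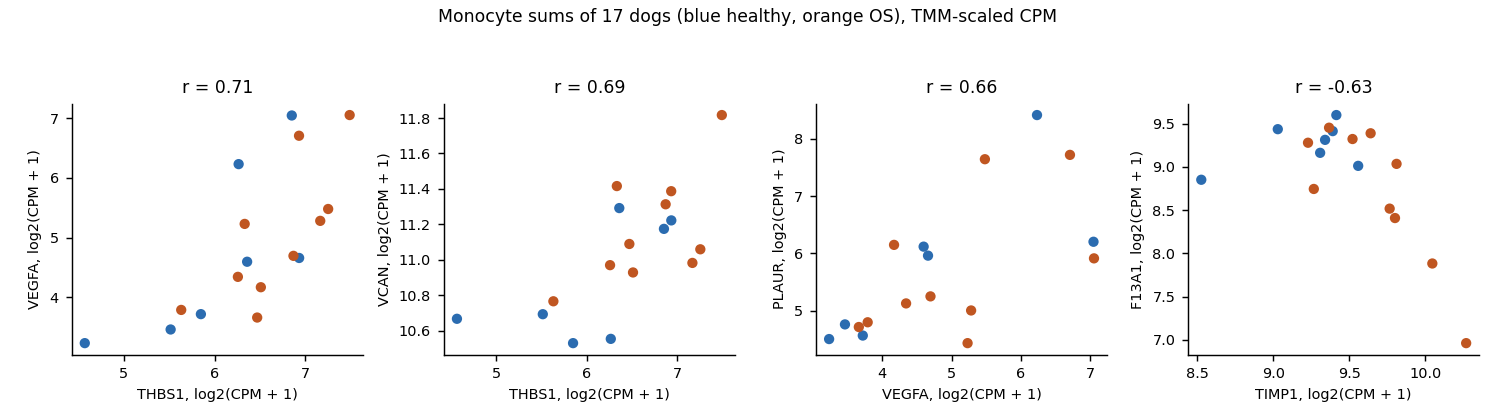
Level in monocytes of 1 gene against another for each of the 17 dogs, healthy in blue and OS in orange, with log2(CPM + 1) after TMM scaling on both axes. THBS1 rises with VEGFA (r = 0.71) and VCAN (r = 0.69), VEGFA with PLAUR (r = 0.66), and TIMP1 runs against F13A1 among OS dogs (r = -0.82).

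The 8 genes act among many others, and a list of 160 genes in 9 roles of matrix, clotting and growth factor biology was followed in monocytes. Of these, 13 were not in the annotation and 114 had enough counts. edgeR called 0 of the 114, as of all genes. At an unadjusted p below 0.05, 10 of the 114 were higher and 0 lower in OS, beside 3.16% and 2.69% of all genes. The list was chosen with earlier results of these data known, so nothing is read from these counts, or from the counts and medians that follow. The list median was 0.11 on the log2 scale against 0.01 for all genes, with 68 of 114 above 0, beside 51.9% of all genes. All 8 plasminogen-system genes tested had a positive value (median 0.21), as had 10 of 13 protease inhibitors (median 0.24), 12 of 18 proteases (median 0.11), 10 of 20 integrins and other matrix receptors (median 0.01), 5 of 10 matrix proteins and proteoglycans (median 0.13), 5 of 8 coagulation genes (median 0.15), 10 of 16 other growth factors (median 0.11), 3 of 9 VEGF-pathway genes (median -0.16) and 5 of 12 TGF-beta-pathway genes (median -0.10).

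Single genes of these roles gave the following values, none with an edgeR adjusted p below 0.741. The elastase inhibitor SERPINA1 was 644 ± 185 CPM in healthy dogs and 877 ± 115 CPM in OS (log2 fold change 0.49). SERPINA1 and SRGN are themselves among the neutrophil markers summed above for these monocytes, so those sums are no separate measure for either gene. NRP1, a co-receptor of VEGFA, was 39.8 ± 7.06 CPM and 56.9 ± 24.2 CPM (0.53), while its relative NRP2 had means of 128 and 92.7 CPM (-0.43). The lysosomal protease CTSD had means of 9.46 and 13 CPM (0.52) and the metalloproteinase MMP19 11.6 and 15.8 CPM (0.49). The adhesive matrix protein TGFBI was 305 ± 60.2 CPM in healthy dogs and 253 ± 22.3 CPM in OS (-0.21). Urokinase itself, PLAU, the ligand of PLAUR, had a log2 fold change of 0.72 with an SE of 1.02, and -0.21 to 2.74 without single dogs. The remaining named genes had log2 fold changes of 0.32 for the granule proteoglycan SRGN, 0.28 for SERPINB1 and 0.51 for SERPINB2 (protease inhibitors), 0.10 for FGL2 and -0.10 for the clotting factor F5. The syndecans SDC4 and SDC2 had 0.92 (SE 0.88) and 0.73 (SE 0.58), and the growth factors EREG and CSF1 0.81 (SE 0.70) and -0.93 (SE 1.07). Without single dogs these ran from 0.54 to 2.75 for SDC4, 0.15 to 1.31 for SDC2, 0.53 to 1.63 for EREG and -1.45 to 0.27 for CSF1, and SERPINB2 from -0.63 to 2.01. Over all 33 alternatives CSF1 ran from -3.25 to 0.54. ACVRL1 and SMAD2 of the TGF-beta pathway had 0.29 and -0.25.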

How the data were processed

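Peripheral blood mononuclear cells of 17 dogs (7 healthy, 10 OS) were sequenced by droplet 3' single-cell RNA-seq, 1 library per dog. The deposited matrices hold counts, the UMIs per gene and barcode that the authors made with Cell Ranger 7.0.0 on the CanFam3.1 dog genome with a filtered Ensembl annotation. The reads were aligned both with and without introns, and which the matrices hold is not given in the sources used here. Intervals and floors cover counting error only.

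Barcodes were kept within limits of 200 to 4500 genes, 500 to 20000 UMIs and 10% mitochondrial UMIs, and the highest Scrublet scores, 0.8% per 1000 barcodes, were removed as doublets. Cells were clustered with custom code and leidenalg 0.10.2 (2000 variable genes, 30 components, 20 neighbours, Leiden resolution 1.0). The correction between dogs was a custom routine written after the model of Harmony. Clusters were named from marker lists, with cut-offs set after the clusters had been seen. The 8 genes entered neither the clustering nor the naming. In the alternative clusterings each cluster took the commonest main name of its cells, and the marker lists were not applied again. Summed counts per dog and class (at least 25 cells per dog, genes with at least 10 counts) were compared by edgeR 4.0.16's quasi-likelihood test with TMM scaling and Benjamini-Hochberg adjustment over all genes tested. Calls needed both an adjusted p under 0.01 and a log2 fold change beyond 0.58 in size. The subset difference was fitted with each dog as a block. Dogs of 1 group count as replicates. Pairs across dogs used 100000 permutations of log2(CPM + 1). DESeq2 1.42.0, other filters, age, the replicate block, other clusterings, cells without platelet UMIs and leaving out each dog were tried as alternatives.

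The 8 genes and the gene lists were chosen with earlier results of these data known. Besides the 8, the text names in each role of the pathway list the 2 whose log2 fold change in monocytes lay furthest from 0 among those of at least 10 CPM, and for each of the 8 the 3 genes most like it over cell classes. On simulated counts for the monocyte comparison (13833 genes, 199 changed 3-fold), 70.9% of the changed genes were called, and 0 of the unchanged genes. Of the 134 changed genes with a mean of at least 50 counts, 96.3% were called. Their median log2 fold change was 1.6, further from 0 than the monocyte value of each of the 8 genes. The simulation thus does not show how often changes of the size seen here would be called. Depth per dog was 7740230 to 56510134 UMIs.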

Additional observations from a re-analysis of the deposited data

Results flagged for a closer look

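Within groups of 6 to 10 dogs, single dogs that stood far from the others were marked by Dixon's test at its 95% critical value. In independent groups of normally distributed values, chance alone passes it in about 1 of 20. Of 96 groups tested, 23 were marked, each by its highest dog. The CPM were not log-transformed and many groups shared dogs and cells, so the 23 are not set against that rate.

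For PLAUR, healthy dog 1 stood apart in all cells (96.3 CPM), monocytes (336 CPM), CD4- monocytes (282 CPM), CD4+ monocytes (518 CPM) and neutrophils (421 CPM), and OS dog 1 among the OS dogs in M-MDSCs (443 CPM). For VEGFA, healthy dog 2 stood apart in all cells (48.3 CPM) and CD4+ monocytes (187 CPM), OS dog 3 in all cells (56.3 CPM) and CD4+ monocytes (182 CPM), and OS dog 2 in IFN signature monocytes (92.3 CPM) and neutrophils (242 CPM). For FN1, healthy dog 5 stood apart in monocytes (958 CPM) and CD4- monocytes (907 CPM), and healthy dog 2 in neutrophils (16.9 CPM). For VCAN, OS dog 3 did so in monocytes (4103 CPM) and CD4- monocytes (3034 CPM) and OS dog 9 in M-MDSCs (7444 CPM). THBS1 was high in the neutrophils of healthy dog 2 (73.4 CPM). For VEGFD, with few UMIs per dog, healthy dog 7 stood apart in monocytes (1.63 CPM) and CD4+ monocytes (5.89 CPM), OS dog 9 in CD4+ monocytes (13.9 CPM) and healthy dog 4 in neutrophils (5.67 CPM).

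The OS effect in CD4+ minus that in CD4- monocytes had an unadjusted two-sided exact permutation p below 0.05 in 2 of the 8 genes, THBS1 (-0.83 on the log2 scale) and TIMP1 (-0.28), both chosen with these values known. In the edgeR fit over all genes TIMP1 did not pass (adjusted p = 0.893), and the THBS1 call was lost with DESeq2 and with every other clustering tried, with differences of -0.90 to -0.73 in 6 of these settings, -0.25 at the finer resolution and -0.18 without the correction between dogs, where 4 dogs had too few CD4+ monocytes to be fitted. The CD4+ class held 2981 to 5765 cells in these other clusterings, against 2997 in the main one.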

How the results depend on the processing

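Depth limited VEGFD (3 to 41 monocyte UMIs per dog) and the neutrophil values, and M-MDSCs had 1 healthy dog. The cause of the changes below was not tested. DESeq2 called 3 genes in all cells, 2 in monocytes and 1 in CD4- monocytes where edgeR called 0. Without a filter on low counts 11 genes were called in M-MDSCs, FN1 and PLAUR among them, against 1 healthy dog. Leaving out 1 dog gave 0 to 1 genes in monocytes (1 without OS dog 4), 0 to 5 in M-MDSCs (5 without OS dog 1, again with FN1 and PLAUR) and 0 to 4 related pairs, against 5 pairs with DESeq2 size factors. Leaving out healthy dog 1 and OS dogs 1, 2 and 3, an alternative chosen after seeing the data, gave 0 related pairs and 4 genes (THBS1 among them) for the subset difference, and turned VEGFA to -0.60 in monocytes and -0.63 in CD4- monocytes and SERPINB2 to -0.66. In the subset difference it turned FN1 to 0.023, VEGFA to 0.016 and VEGFD to 0.45.

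With the replicate number as a block, 24 genes were called in IFN signature monocytes and 17 in neutrophils, of which 0 and 2 were of the 8 genes (VCAN and TIMP1, higher in OS). Same-numbered dogs of the 2 groups share only a number: over 7 pairs the correlation of their deviations was -0.39 to 0.61, with 5 above 0.1 and 0 dogs closest to their own number. Under that pairing PLAUR turned to 0.33 in all cells, 0.29 in monocytes, 0.32 in CD4- monocytes, 0.14 in CD4+ monocytes and -0.78 in IFN signature monocytes, VEGFA to 0.25 and VEGFD to -0.54 in CD4+ monocytes, FGL2 to -0.064 and CSF1 to 0.54. With age as a covariate, F13A1 was 0.011 in all cells and VEGFA -0.053 in neutrophils. In CD4+ monocytes VEGFA was 0.014 with DESeq2, 0.011 at the coarser resolution and 0.033 with another seed. With at least 10 cells per dog, TIMP1 was 0.40 in M-MDSCs of 7 healthy and 9 OS dogs and PLAUR -0.025 in IFN signature monocytes.

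Leaving out 1 dog moved VEGFA from -0.25 to 0.75 in monocytes, -0.29 to 0.69 in CD4- and -0.46 to 0.62 in CD4+ monocytes. It moved PLAUR from -0.67 to 0.65, -0.67 to 0.69 and -0.76 to 0.50, TIMP1 in M-MDSCs, whose fits hold 1 healthy dog and support no comparison, from -0.32 to 0.15, and in monocytes PLAU from -0.21 to 2.74, SERPINB2 from -0.63 to 2.01 and CSF1 from -1.45 to 0.27.

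The difference of the OS effect between CD4+ and CD4- monocytes, whose alternatives in the fit over all genes were chosen after seeing the data, gave 2 genes. It gave 0 with DESeq2, another seed, no correction between dogs or doublets kept, and 1 at resolution 0.5 or 1.5, with the 8 genes in the clustering, a looser cell filter or no platelet UMI. THBS1 kept its sign in these 9 and without the 4 dogs. Without each dog in turn its difference within dogs was -0.95 to -0.74. Without the correction between dogs, with those 4 dogs short of CD4+ monocytes and 13 fitted, the difference turned to 0.31 for FN1, 0.011 for F13A1, 0.064 for VEGFA and 0.50 for VEGFD. FN1 was 0.090 at resolution 1.5 and 0.0078 with doublets kept. VEGFD was 0.49 and 0.29 at resolutions 0.5 and 1.5, 0.39 with another seed, 0.37 with the 8 genes in the clustering, 0.49 with doublets kept, 0.54 with the looser filter and 0.50 without platelet UMIs. PLAUR was 0.0030 at resolution 0.5, 0.049 with doublets kept, 0.046 with the looser filter and 0.016 without platelet UMIs. In no other clustering was M-MDSC the commonest main name of a cluster. M-MDSCs could not be tested with the block or without platelet UMIs, nor could IFN signature monocytes without the correction between dogs. The fit over all genes of the subset difference was not run with single dogs left out.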

Other observations

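Of the genes with at least 10 CPM in at least 1 of 18 cell classes, 10254 in all, the 3 with the highest Pearson r to each of the 8 genes over the class means were taken as most like it. The points of these correlations share dogs, libraries and depth, so the values are descriptions. FN1 was followed most closely by the growth factors FGF10 (r = 0.97) and NRG1 (0.97) and by SMTNL2 (0.96), of which NRG1 is also a marker used to name the monocytes. VCAN was followed by SH3BP4 (0.96), the nuclear receptor RXRA (0.95) and the complement receptor C5AR2 (0.95). THBS1 was followed by DCSTAMP, a membrane protein needed for the fusion of osteoclasts and macrophages (0.97), the lysosomal glycoprotein CD68 (0.91) and the matrix protein FBLN2 (0.90). DCSTAMP and CD68, like THBS1, had their highest class mean in platelets (1880 and 611 CPM). TIMP1 was closest to SNX21 (0.92), RAB13 (0.92) and TSPAN32 (0.90), all highest in platelets like TIMP1 itself. F13A1 was closest to ENSCAFG00000031869 (0.95), RUSC2 (0.94) and SLC24A3 (0.91). VEGFA was closest to the phosphatase DUSP1 (0.94), the collagen prolyl hydroxylase subunit P4HA2 (0.93) and the transcription factor SNAI1 (0.93). PLAUR was closest to ENSCAFG00000028453 (0.99), SERPINA1 (0.98) and the sterol hydroxylase CYP27A1 (0.97). VEGFD, which stayed below 10 CPM in each class, was closest to PDPN (0.99), MICALL2 (0.96) and endothelin 1, EDN1 (0.96).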
